A study of Mus musculus with 8 samples.

Results

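The comparison concerned T cells that had become CD69+ after contact with donor dendritic cells, taken from mice that were rejecting a skin graft and from mice treated to accept it. It rested on 2 of the 8 arrays of the series, chosen by their labels: the rejecting CD69+ array of day 7 and the early tolerant CD69+ array of day 21. All recipients were male C57BL/6 mice. The rejecting mice bore tail skin of BDF1 donors, a cross of C57BL/6 with DBA/2, and received no treatment. The early tolerant mice bore the same kind of graft and had been given a transfusion specific for the donor together with MR-1, an antibody against CD40L. Naive mice, which carried no graft, served as the point of reference. T cells from spleen and lymph node of every group spent 20 to 21 hours in culture with bone marrow-derived dendritic cells of the donor and were then sorted as CD3+ cells by CD69. The CD69- cells of the same cultures gave the same contrast on 2 further arrays.

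Rejecting and early tolerant mice differed in treatment and also in the day after grafting, and the effects of the 2 cannot be told apart. Every group was a single array, so no difference had a replicate check and no test was made. The number of mice behind an array is not stated. Every culture held donor dendritic cells, so a response to the donor was not separated from a response to culture. RNA was measured in bulk, so fewer cells of a type and less RNA per cell cannot be told apart.

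CD69 appears on a T cell within hours of antigen receptor engagement, and the sort on it was meant to enrich cells responding to the donor. A rejecting host is known to generate Th1 cells, which make interferon gamma under the transcription factor T-bet, cytotoxic CD8 cells, and in some settings Th17 cells, which make IL-17A and IL-17F. Blockade of CD40L together with donor cells deprives T cells of a costimulatory signal and is known to favour deletion, unresponsiveness and Foxp3+ regulatory T cells. Activated T cells also divide, raise glycolysis, and can engage the p53 pathway, which halts the cell cycle through p21 and promotes cell death.

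Values are normalized intensities as the authors deposited them, on a linear scale and without background subtraction, so folds of dim genes are understated. Each gene stands for its brightest probe, and the comparison took in the 7403 genes that 2 or more of the 8 arrays detected (detection p-value below 0.01). Detected probes made up 37.3% to 40.1% of an array, and the number of arrays limits the precision. Each gene list below is given as the genes compared out of those on the array. Cd69 itself had a signal of 5714 on the rejecting, 5589.5 on the early tolerant and 7622 on the naive CD69+ array, against 1984, 1982 and 3083 on the matching CD69- arrays. The antigen receptor gene Cd3e had signals of 9242, 9861 and 7425 on the CD69+ arrays. Genes of another cell type differed between the arrays compared, although the sort was on CD3: 24 dendritic and myeloid genes summed to 11108 on the rejecting, 59159 on the early tolerant and 23149 on the naive CD69+ array. On the CD69- arrays they summed to 8199, 17393 and 11402. The 2 lysozyme genes weighed heavily in the CD69+ sums, with Lyz1 at 964, 22912 and 7169 and Lyz2 at 377, 8305 and 2748. Of the defining markers, Itgax, Itgam, Spi1 and Sirpa were detected on fewer than 2 arrays.

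In CD69+ cells, 278 genes (3.76% of those compared) were at least 1.5-fold higher in rejecting than in early tolerant mice, and 315 (4.26%) were at least 1.5-fold lower. At 2-fold the counts were 79 and 108, and at 4-fold 13 and 21. Counting only genes with a signal of 500 or more on the brighter array left 2.73% higher and 2.46% lower. The genes furthest apart on the upper side were Il17f and Ifng, then p53 targets and the chemokine gene Ccl3, and on the lower side lysozyme, class II and dendritic cell genes. In CD69- cells, 123 genes (1.66%) were higher and 137 (1.85%) lower, or 1.07% and 1.13% with that minimum. The median log2 ratio of all genes, rejecting over early tolerant, was 0.0041 in CD69+ and 0.0038 in CD69- cells. Scaling the arrays by their medians in place of the authors' normalization put 577 genes higher and 217 lower in CD69+ cells, with the median of all genes at 0.16, and 325 higher and 83 lower in CD69- cells.

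The cytokine genes Il17f and Ifng had the highest ratios of rejecting over early tolerant CD69+ cells among the named genes. Il17f, the cytokine gene of Th17 and some other activated T cells, had a signal of 8491 on the rejecting, 394 on the early tolerant and 611 on the naive CD69+ array, a 21.6-fold higher level in rejecting than early tolerant cells. The rejecting array alone was high, and on the CD69- arrays of these states the gene was not detected. Il17a, its neighbour in the family, was detected on the rejecting CD69+ array only, with 1089 there, 139 on the early tolerant and 132 on the naive array, at least 7.71-fold higher than in early tolerant cells. Being detected on 1 array, it was not among the genes counted. Ifng, the interferon gamma gene, had 19248 in rejecting, 919 in early tolerant and 2975 in naive CD69+ cells. The rejecting level was 20.9-fold above the early tolerant one, which lay below the naive one. In CD69- cells Ifng had 738 in rejecting mice, was not detected in early tolerant mice and had 164 in naive mice, at least 4.72-fold higher in rejecting than early tolerant mice.

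Among 16 of 18 Th1 genes, 5 were at least 1.5-fold higher in rejecting than early tolerant CD69+ cells, against 3.76% of all genes. None was lower, and the median log2 ratio was 0.31 against 0.0041 for all genes. Il12rb2, the receptor chain that keeps Th1 cells responsive to IL-12, had 579 on the rejecting array, was not detected on the early tolerant one and had 265 on the naive array, at least 4.10-fold higher in rejecting than early tolerant cells. Tbx21, which encodes T-bet, had 989, 488 and 1185 on the rejecting, early tolerant and naive arrays. Rejecting cells were near the naive level of Tbx21, and the early tolerant level was the lowest. Il18r1, a receptor chain for IL-18, had a log2 ratio of 0.86 and the interferon gamma receptor gene Ifngr1 one of 0.64. Not every Th1 gene followed: Tnf had a log2 ratio of 0.31, the chemokine receptor gene Cxcr3 0.31, and Eomes, a relative of T-bet, -0.27.

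**Figure D1:**
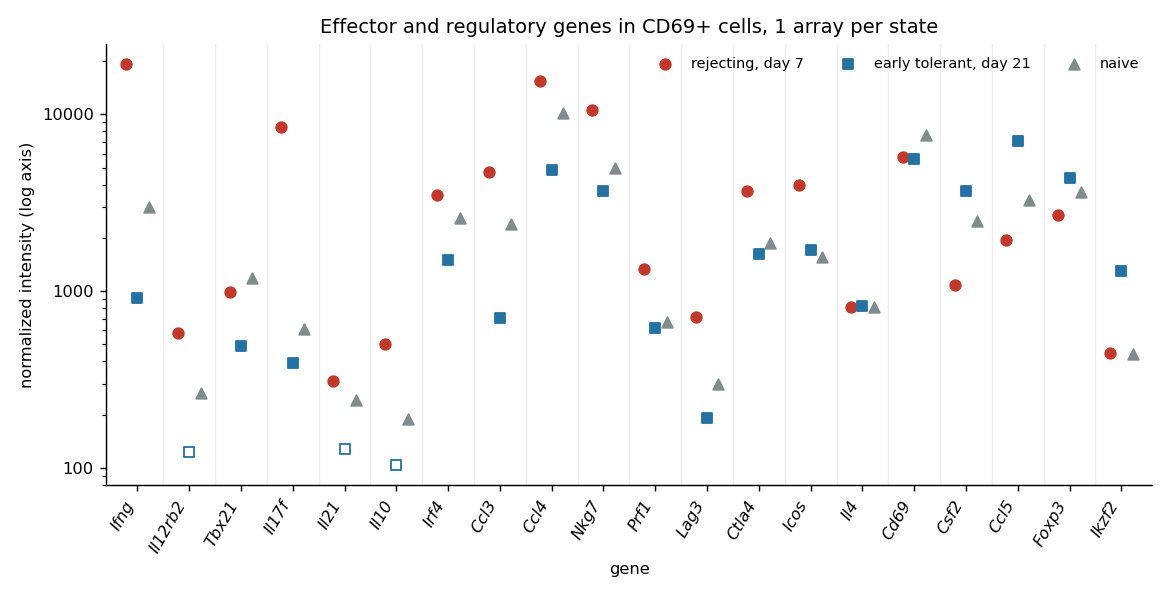
Normalized intensity (log axis) of 20 effector and regulatory genes in CD69+ cells of rejecting (circles), early tolerant (squares) and naive mice (triangles), 1 array each. Open symbols mark genes not detected on that array. Il17f stands at 8491 in rejecting, 394 in early tolerant and 611 in naive cells, while Cd69 and Il4 lie close together in rejecting and early tolerant cells.

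The Th17 list did not move as a whole. Of 8 genes (14 on the array), 2 were higher and 3 lower, against 3.76% and 4.26% of all genes, and 3 lay within 1.5-fold. Beside Il17f, the higher one was Il21, a helper cytokine, with 309 in rejecting cells and no detection in early tolerant cells, at least 2.19-fold. Rora, a transcription factor of the Th17 lineage, had a log2 ratio of -0.59, the activation factor gene Batf -0.75 and the chemokine receptor gene Ccr6 -0.75. Il10, the anti-inflammatory cytokine gene, had 503 on the rejecting CD69+ array, was not detected on the early tolerant one and had 188 on the naive one, at least 3.56-fold higher in rejecting than early tolerant cells. The list of type 2 cytokines and IL-10 had 11 genes compared (12 on the array). Of these, 4 were higher and 1 was lower, against 3.76% and 4.26% of all genes. Irf4 (1.22) and Nfil3 (1.12), transcription factors that act upstream of Il10 among other genes, were higher by log2 ratio, while Il4 stood level at 818, 822 and 808 on the rejecting, early tolerant and naive arrays. Il5, a type 2 cytokine gene, was the lower one and was detected in early tolerant cells alone of the 3 CD69+ arrays, with 280.4.

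Chemokine and growth factor genes of activated T cells were split, with 2 of 7 chemokine genes (9 on the array) higher and 1 lower. On the GM-CSF and LIF list 1 of 5 genes (7 on the array) was higher and 1 lower. The shares over all genes were 3.76% higher and 4.26% lower. Ccl3 had 4743 in rejecting, 708 in early tolerant and 2382 in naive CD69+ cells, 6.70-fold higher in rejecting than early tolerant cells, and Ccl4 had 15477, 4863 and 10198, a 3.18-fold difference. Both encode inflammatory chemokines that activated T cells secrete. Ccl5, a chemokine gene of effector and memory T cells, ran the other way, with 1952 in rejecting, 7035 in early tolerant and 3291 in naive cells, 3.60-fold lower in rejecting cells. Csf2, which encodes GM-CSF, was also lower, with 1083, 3702 and 2501 in the same order, a 3.42-fold difference. For both Ccl5 and Csf2 the early tolerant array was the highest of the 3 and the rejecting array the lowest, the same order as the summed dendritic and myeloid genes; the part of those cells in these values was not tested. Lif, a cytokine of the IL-6 family, had a log2 ratio of 0.70 (0.26 and 0.70 on its probes), and Il3 and Osm had 0.17 and 0.13.

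Cytotoxic genes were divided between higher and level. Of 12 compared (21 on the array), 6 were at least 1.5-fold higher in rejecting CD69+ cells, against 3.76% of all genes, 1 was lower and 5 lay within 1.5-fold (median log2 ratio 0.52), and 3 were higher, against 1.66% of all genes, and none lower in CD69- cells (median 0.29). Nkg7, a granule membrane protein gene, had 10553, 3692 and 4983 on the rejecting, early tolerant and naive CD69+ arrays. Perforin, Prf1, had 1329, 621 and 665. The rejecting array was the highest for both, and the early tolerant level lay below the naive one. Srgn, the granule proteoglycan gene, had log2 ratios of 0.27 to 1.19 over its probes, and the killer cell receptor gene Klrd1 had 0.94. Gzmk, granzyme K, was not detected in early tolerant CD69+ cells and was at least 2.01-fold higher in rejecting ones, and Gzmb was not detected on any array. Klrg1, a receptor of terminal effector cells, was the lower gene (-0.60). Cd8b1, a CD8 chain, had 25855 in rejecting, 13416 in early tolerant and 14814 in naive CD69+ cells, while Cd4 stood at 354, 371 and 352. The Cd4 signal was dim, with lowest detected signals of 150, 141 and 149 on these arrays. Cd8a, the other CD8 chain, was not detected on any array. The part of the CD8 share of the cells in the cytotoxic values was not tested.

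Of the 31 lists, the p53 targets held the most genes that were higher in rejecting CD69+ cells. Of 31 compared (38 on the array), 20 were at least 1.5-fold higher, against 3.76% of all genes, none was lower and 11 lay within 1.5-fold. Their median log2 ratio was 1.04, or 1.05 with undetected genes at their bounds. Here the rejecting array stood apart and the early tolerant one did not: the median over the naive array was 0.97 for rejecting and -0.01 for early tolerant cells, 2 comparisons that share the naive array. In CD69- cells 3 of the 31, Phlda3, Cdkn1a and Gtse1, were higher in rejecting mice and none lower (median 0.12, against 1.66% of all genes higher). Phlda3 was not detected in early tolerant CD69- cells, and its bound there was at least 1.15-fold. Detection limits this count and median, since 7 of the 31 were detected on neither CD69- array compared. The dendritic and myeloid genes were in the opposite order on these arrays, and the part of those cells in the p53 values was not tested.

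Phlda3, Zfp365 and Cdkn1a had the highest ratios of the p53 list. Cdkn1a, which encodes p21, had 5915 on the rejecting, 1141 on the early tolerant and 712 on the naive CD69+ array, a 5.18-fold difference between rejecting and early tolerant cells. Phlda3, an inhibitor of Akt signalling, had 2932, 381 and 365, and Ccng1, cyclin G1, had 8505, 2111 and 2253. For all 3 the rejecting array lay clear of the other two. Gtse1, which restrains p53 in dividing cells, was 4.33-fold higher, the thiamine transporter gene Slc19a2 4.90-fold and the stress gene Trp53inp1 3.54-fold. Zfp365, a genome stability gene, was not detected in early tolerant cells and was at least 5.48-fold higher in rejecting ones. DNA repair and lesion bypass genes were among the others, with Polk at a log2 ratio of 1.82 and Ercc5 at 1.12. Mdm2, the ubiquitin ligase that limits p53 itself, had 0.93 on its brightest probe and 1.59 on another. Not all targets followed: the death receptor gene Fas had a log2 ratio of 0.02, Gadd45a 0.14 and Sesn1 -0.38.

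**Figure D2:**
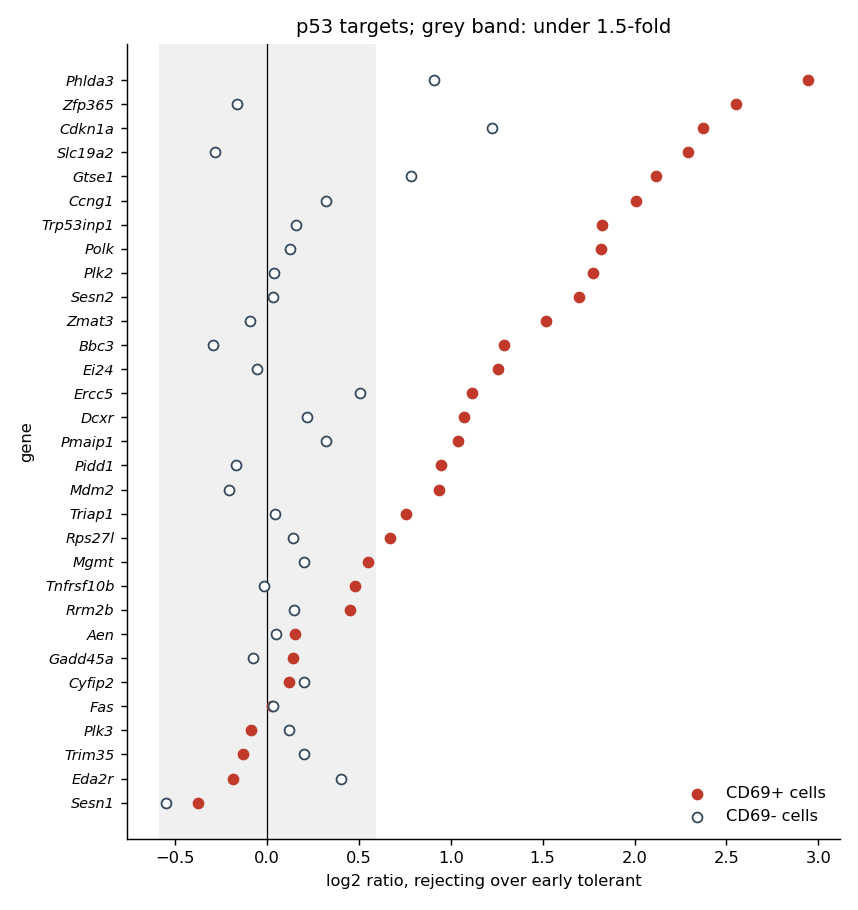
Log2 ratio, rejecting over early tolerant, of the 31 tested p53 targets in CD69+ cells (filled) and CD69- cells (open), 1 array a side. Points in the grey band lie under 1.5-fold; 20 genes lie to its right in CD69+ cells and 3 in CD69- cells.

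The promoter of Cdkn1a is shown because this gene is the textbook p53 target and was among the highest. RefSeq (GRCm38.p6) gives 2 starts for it, and the 250 bases before the upstream start, chr17:29090729-29090978 on the + strand, are printed with the p53 consensus match in capitals, which begins 51 bases before the start.
Cdkn1a: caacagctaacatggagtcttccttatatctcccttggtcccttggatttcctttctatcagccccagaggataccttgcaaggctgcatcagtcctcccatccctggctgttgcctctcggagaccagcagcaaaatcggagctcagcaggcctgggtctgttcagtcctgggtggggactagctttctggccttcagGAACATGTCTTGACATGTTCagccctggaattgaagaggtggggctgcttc
The match allows at most 1 mismatch over the 20 bases of the consensus. Such a match was found in 0.0761% of all 32851 promoter windows of this length and in 0.0925% of all genes with a window. Of the 25 tested p53 targets with a window, 3 had it, Cdkn1a, Ccng1 and Rps27l. A match is a sequence description and not a measured site.

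Genes of the Bcl2 family balance survival and death. Of 12 compared (15 on the array), 3 were higher, against 3.76% of all genes, and none was lower. Bbc3 and Pmaip1, the death genes PUMA and NOXA that p53 is known to induce, had log2 ratios of 1.29 and 1.04. Bbc3 had 0.63 as the mean of its 3 probes, of which 1 was detected on the arrays compared. Bcl2, a survival gene, had 0.75 on its brightest probe and 0.04 on another. Mcl1 and the death gene Bcl2l11 had 0.17 and 0.36, and Bcl2l1, the survival gene Bcl-xL, had -0.53.

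Regulatory T cell genes were divided. Of 20 compared (22 on the array), 3 were higher in rejecting CD69+ cells, 7 were lower and 10 lay within 1.5-fold, against 3.76% of all genes higher and 4.26% lower (median log2 ratio -0.24). Foxp3, the lineage transcription factor, had 2689 in rejecting, 4367 in early tolerant and 3659 in naive CD69+ cells, 1.62-fold lower in rejecting than early tolerant cells. Ikzf2, which encodes Helios and marks regulatory cells of thymic origin, had 447, 1305 and 442 in the same order, and Nrp1, a surface receptor of such cells, had 975, 2622 and 1985. For Ikzf2 the early tolerant array stood apart while rejecting and naive cells were level. Nrp1 was lowest in rejecting and highest in early tolerant cells, the same order as the summed dendritic and myeloid genes. The part of those cells in its values was not tested. The other lower genes were Cd83 (-1.42), Ebi3 (-1.06), Swap70 (-0.94) and Socs2 (-0.60). Cd83, Ebi3 and Swap70 are also known from dendritic cells, whose genes were higher on the same early tolerant array, and the source of their signal was not tested. Il2ra, the IL-2 receptor alpha chain, was level with 2104, 2144 and 2327, as was Tnfrsf4, the costimulatory receptor OX40 (-0.16).

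The 3 genes of that list that were higher in rejecting cells, Il10, Lag3 and Ctla4, are shared with activated effector cells. Lag3, an inhibitory receptor for class II, had 709.6 on the rejecting, 191 on the early tolerant and 297 on the naive CD69+ array. Ctla4, the inhibitory receptor for CD80 and CD86, had 3702, 1629 and 1876. Both were highest in rejecting cells. They were the 2 of 6 inhibitory receptor genes (9 on the array) past 1.5-fold, against 3.76% of all genes higher. Btla, Cd5, Cd160 and Cd200 had log2 ratios of 0.12, -0.22, -0.42 and -0.50. Of 15 costimulatory genes (17 on the array), 3 were higher and 2 lower, against 3.76% and 4.26% of all genes. Icos, a costimulator of effector and follicular helper cells, had 4004, 1700.0 and 1551. Tnfsf4, the ligand of OX40, was detected in rejecting cells alone of the 3 CD69+ arrays, at least 2.56-fold above early tolerant cells, and Cd28 had a log2 ratio of 0.76. The lower genes were Cd70, the ligand of CD27 (-0.68), and the death domain receptor gene Tnfrsf25 (-0.60 on its brightest probe and 0.14 on another).

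Activation genes differed in both directions. Of 25 compared (29 on the array), 4 were higher, 4 lower and 17 within 1.5-fold, with a median log2 ratio of 0.08. Of all genes, 3.76% were higher and 4.26% lower. Tfrc, the transferrin receptor of dividing cells, had 12583, 5397 and 7155 on the rejecting, early tolerant and naive CD69+ arrays, and Batf3 and Socs3 had log2 ratios of 1.47 and 1.21. Egr2 (0.15), Cd44 (0.08) and Nr4a3 (-0.04) were level. Besides Cd83 and Batf, the phosphatase gene Dusp2 (-0.82) and the NF-kB inhibitor gene Nfkbia (-0.64) were lower. Of 20 pan-T and receptor signalling genes (23 on the array), 4 were higher, against 3.76% of all genes, and none was lower. The 4 were Ptpn22, a phosphatase of receptor signalling (0.96), Cd8b1, Cd28 and Cd247, the zeta chain (0.65). Of 19 genes of naive and resting T cells (22 on the array), 3 were higher, against 3.76% of all genes, and none was lower. Pik3ip1, an inhibitor of PI3K, had 0.91, Pdk1 0.78 and the homing receptor gene Ccr7 0.59, while Klf2 had -0.03.

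Replication genes were mostly level. Of 22 S phase genes (24 on the array), 18 lay within 1.5-fold, 1 was higher and 3 were lower, against 3.76% and 4.26% of all genes, with a median log2 ratio of -0.19. Mcm7, a helicase subunit, had 1264 in rejecting, 2625 in early tolerant and 1746 in naive CD69+ cells, and Mcm5, of the same complex, had a log2 ratio of -0.64. Rfc4 had -0.62 on its brightest probe and 0.02 on another. Ccne1, cyclin E1, which drives entry into S phase, was the higher gene (0.75). Of 17 mitosis genes (26 on the array), 16 lay within 1.5-fold, none was higher and 1, Melk, was lower (-1.02 and -0.24 on its probes). In CD69- cells 3 S phase genes and 3 mitosis genes were higher in rejecting mice, against 1.66% of all genes, and none was lower. Among them were the thymidylate synthase gene Tyms (0.76) and the survivin gene Birc5 (0.76). The rejecting array was the highest of the 3 CD69- arrays for all 17 mitosis genes and for 16 of the 22 S phase genes. Their median log2 ratios over early tolerant cells were 0.36 and 0.14. Detection limits these ranks and medians, since 5 of the mitosis and 4 of the S phase genes were detected on neither CD69- array compared.

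Glycolysis and hypoxia genes ran in opposite directions in the 2 fractions. In CD69+ cells all 21 genes compared (25 on the array) had higher values in rejecting than early tolerant mice (median log2 ratio 0.54). Of them, 8 were higher by at least 1.5-fold, against 3.76% of all genes. In CD69- cells 20 of the 21 had lower values in rejecting mice, 15 by at least 1.5-fold against 1.85% of all genes, with a median of -0.94. Different arrays stood apart in the fractions. Among CD69+ cells the early tolerant array was the lowest of the 3 for 18 of the 21 genes, and rejecting cells were near the naive level (median 0.10). Among CD69- cells the rejecting array was the lowest for 20 of the 21, with a median of -1.39 against naive cells. Whether the state or the single array carried each difference was not tested.

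The glucose transporter gene Slc2a1 had 4963 in rejecting, 3359.8 in early tolerant and 4216 in naive CD69+ cells, against 2350.4, 7632 and 10024 in CD69- cells of the same states. Hk2, hexokinase, which commits glucose to the pathway, had 10150.4, 7332 and 11077 in CD69+ cells and 1030.5, 3332 and 4566 in CD69- cells. In CD69+ cells the 3 states were closer together for both genes, and in CD69- cells the rejecting array was the low one. Aldoa, aldolase, was 1.56-fold higher in rejecting CD69+ cells and 1.88-fold lower in rejecting CD69- cells. Egln3, an oxygen-sensing hydroxylase gene induced by hypoxia, had 2427, 864 and 1887 in CD69+ and 516, 918 and 1889 in CD69- cells. Of its 2 probes, 1 was detected on the CD69+ arrays compared. The mean log2 ratio with the undetected probe included was 0.87 in CD69+ cells, in place of 1.49. Vegfa, the angiogenic factor gene, was not detected in rejecting CD69- cells and was at least 3.96-fold lower there. In CD69+ cells it had a log2 ratio of 0.59 (0.26 on another probe). Hilpda, a lipid droplet protein gene outside the list that the same pathway induces, had log2 ratios of 1.35 in CD69+ and -1.55 in CD69- cells.

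**Figure D3:**
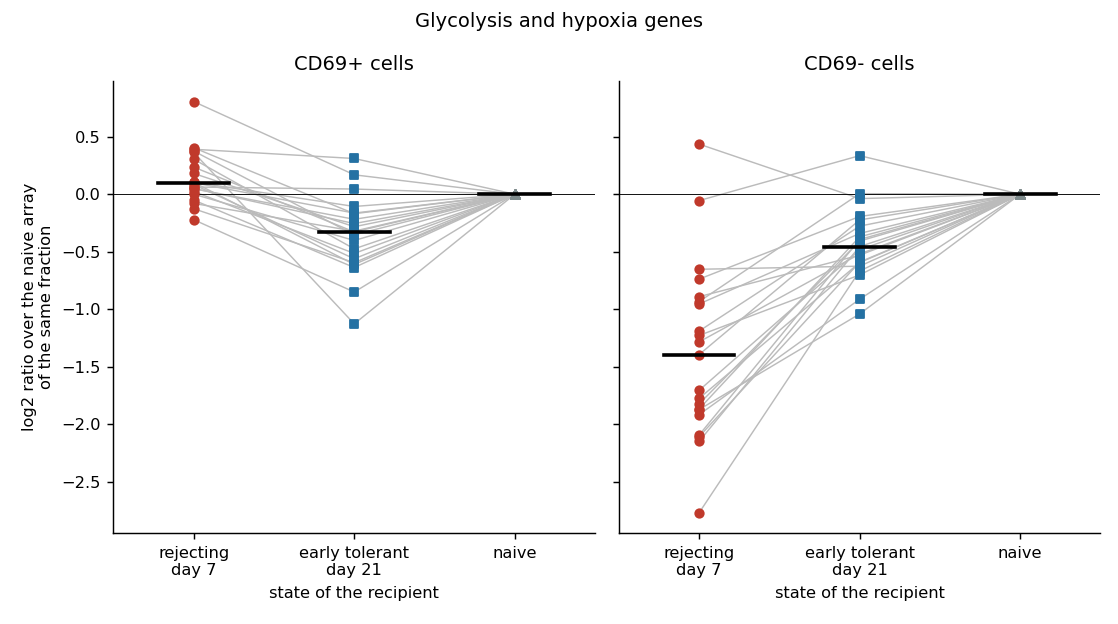
Log2 ratio of the 21 tested glycolysis and hypoxia genes over the naive array of the same fraction, in CD69+ cells (left) and CD69- cells (right), 1 array per state; thin lines join a gene and black bars are medians. In CD69+ cells the medians were 0.10 in rejecting and -0.33 in early tolerant mice, and in CD69- cells -1.39 in rejecting and -0.45 in early tolerant mice.

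Promoters of Hilpda and Egln3 are shown because these hypoxia genes ran in opposite directions in the fractions. The 250 bases before a RefSeq start (GRCm38.p6) lie at chr6:29272376-29272625 on the + strand for Hilpda and at chr12:54203875-54204124 on the - strand for Egln3, and capitals mark ACGTG, the core of the hypoxia response element, on either strand.
Hilpda: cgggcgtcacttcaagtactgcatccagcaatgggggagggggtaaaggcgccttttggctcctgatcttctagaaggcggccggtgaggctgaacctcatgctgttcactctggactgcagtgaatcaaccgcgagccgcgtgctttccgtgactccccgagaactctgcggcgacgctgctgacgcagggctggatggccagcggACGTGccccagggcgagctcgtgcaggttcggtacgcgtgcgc
Egln3: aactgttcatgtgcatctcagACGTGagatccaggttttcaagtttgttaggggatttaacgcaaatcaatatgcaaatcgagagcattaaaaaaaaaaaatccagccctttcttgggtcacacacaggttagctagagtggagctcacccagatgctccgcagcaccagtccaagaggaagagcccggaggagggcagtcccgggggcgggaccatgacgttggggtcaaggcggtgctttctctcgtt
The match begins 43 bases before the start in Hilpda, which has a further start, and 229 bases before it in Egln3. ACGTG was found in 12 of the 19 tested list genes with a window, against 18.5% of all genes with a window and 16.6% of all 32851 windows.

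Other metabolic lists were divided or level. Of 21 genes (27 on the array) of amino acid supply and the ATF4 stress response, 5 were higher and 2 lower in CD69+ cells. That compares with 3.76% and 4.26% of all genes. Sesn2, a stress sensor that is also a p53 target, had 737, 227 and 382 on the rejecting, early tolerant and naive arrays (0.96 and 1.70 on its probes as log2 ratios). Ddit4, an inhibitor of mTORC1, had 7011, 2292 and 2002, and in CD69- cells 1694, 3475 and 4408, so that its order was reversed between the fractions. Asns, asparagine synthetase, had a log2 ratio of 0.86, and the amino acid transporter genes Slc7a3 and Slc38a2 had 1.55 and -0.89. Of 13 ribosome biogenesis genes (18 on the array) none passed 1.5-fold (median -0.35), and of 14 heat shock genes (17 on the array) none did. Of 17 cholesterol synthesis genes (21 on the array), 1 was higher and 4 were lower (median -0.39), against 3.76% and 4.26% of all genes. Among the lower ones were the squalene epoxidase gene Sqle (1713, 2854 and 3391) and the synthase gene Hmgcs1 (-0.59).

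Interferon-stimulated genes separated the states more in the CD69- than in the CD69+ fraction by count. Of 28 compared (35 on the array), 4 were higher and none lower in rejecting CD69+ cells (median log2 ratio 0.25). In rejecting CD69- cells 11 were higher and none lower (median 0.46). The shares of all genes that were higher were 3.76% in CD69+ and 1.66% in CD69- cells, and the difference between the fractions was not tested. Ifit3, an antiviral protein gene, had 13439 in rejecting, 4415 in early tolerant and 12074 in naive CD69- cells, and Oasl2, of the same response, had 4587, 1692 and 4587. Rejecting and naive cells were level and the early tolerant array was low. It was the lowest of the 3 CD69- arrays for 27 of the 28 genes, and the lowest CD69+ array for 21 of them. In CD69+ cells Ifit3 had a log2 ratio of 1.24 (0.47 on another probe), Usp18, which restrains the response, 0.97, and Gbp2, which interferon gamma induces, 0.76 (-0.10 on another probe).

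Genes of antigen-presenting cells led the lower side of the comparison. Of 24 dendritic and myeloid genes (34 on the array), 21 were at least 1.5-fold lower in rejecting than early tolerant CD69+ cells, against 4.26% of all genes, and none was higher (median log2 ratio -1.64, or -1.38 with undetected genes at their bounds). Many of these genes passed detection through the early tolerant array, where they were high, so their count and median describe the list and support nothing further. For 21 of the 24 the rejecting array was the lowest of the 3 CD69+ arrays and the early tolerant one the highest. Lyz2, the lysozyme gene of macrophages and dendritic cells, had 377 in rejecting, 8305 in early tolerant and 2748 in naive CD69+ cells, and 346, 2052 and 1006 in CD69- cells. Lyz1 had 964, 22912 and 7169 in CD69+ cells. The 2 genes are near-identical copies whose probes may share signal. Of the 3 probes of Lyz1, 1 was detected on the CD69+ arrays compared. With the undetected probes included, its mean log2 ratio was -1.54 in place of -4.57. Fscn1, the actin-bundling gene of mature dendritic cells, was 5.01-fold lower, and the costimulatory genes Cd40 and Cd86 had log2 ratios of -2.11 (-0.85 on another probe) and -0.99. Il4i1, an amino acid oxidase gene, was 6.51-fold lower, and Apol7c and Clec4n, which were not detected in rejecting cells, were at least 9.38-fold and 5.78-fold lower. Cd80, also a ligand of CD28, was an exception with 791, 617 and 426.

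Class II genes, which present peptides to CD4 T cells, mostly followed that order. Of 12 compared, all on the array, 8 were lower in rejecting CD69+ cells, against 4.26% of all genes, and none was higher. The median log2 ratio was -1.20, or -1.18 with undetected genes at their bounds. All 12 were detected on the early tolerant CD69+ array and 10 on the rejecting one, so the count describes the list and supports nothing further. In CD69- cells 5 were lower, against 1.85% of all genes (median -0.50), but 3 of the 12 were detected on neither CD69- array compared. H2-Ab1, the beta chain of I-A, had 328 in rejecting, 3080.2 in early tolerant and 1088 in naive CD69+ cells. Cd74, the invariant chain, had 1471, 7784 and 3581, and H2-Eb1, the beta chain of I-E, had 319, 2271 and 854. H2-Ea, the I-E alpha chain, which C57BL/6 mice are known not to express and DBA/2 mice to express, had 187, 2924 and 936. For these 4 genes the early tolerant array was the highest and the rejecting array the lowest. H2-DMa, a peptide loading gene, was level at 4644 and 4515 in rejecting and early tolerant cells.

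The promoters of H2-Aa and H2-Eb1 are shown because the class II chain genes ran in the same order. The 250 bases before the RefSeq starts (GRCm38.p6) lie at chr17:34287824-34288073 on the - strand for H2-Aa and chr17:34305617-34305866 on the + strand for H2-Eb1, and capitals mark CTGATTGG, the Y box of class II promoters.
H2-Aa: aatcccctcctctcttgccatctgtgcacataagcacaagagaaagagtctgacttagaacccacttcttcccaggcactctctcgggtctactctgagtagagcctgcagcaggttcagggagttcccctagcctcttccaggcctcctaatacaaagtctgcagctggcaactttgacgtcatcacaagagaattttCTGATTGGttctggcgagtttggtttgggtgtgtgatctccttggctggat
H2-Eb1: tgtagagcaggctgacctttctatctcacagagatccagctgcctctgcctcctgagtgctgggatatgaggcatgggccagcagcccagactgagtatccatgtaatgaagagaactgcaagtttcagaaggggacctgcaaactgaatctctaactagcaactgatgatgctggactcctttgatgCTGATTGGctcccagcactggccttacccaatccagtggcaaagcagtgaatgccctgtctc
The match begins 51 bases before the start in H2-Aa and 62 bases in H2-Eb1. CTGATTGG, searched on both strands, was found in 3 of the 8 tested class II list genes with a window. It was found in 4.43% of all genes with a window and in 3.83% of all windows. Its inner part GATTGG was found in 7 of the 8, against 16.6% of all genes with a window and 14.6% of all windows.

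Chemokine genes of antigen-presenting cells were lower in rejecting cells for all 6 compared of 15 on the array, against 4.26% of all genes. Only 3 of the 6 were detected on the rejecting CD69+ array and 3 on the naive one, against 6 on the early tolerant one. Some thus passed detection through arrays where they were high, so this count describes the list and supports nothing further. Ccl17, a dendritic cell chemokine that draws CCR4+ T cells, had 175, 3135 and 634 on the rejecting, early tolerant and naive CD69+ arrays, and Ccl9 had 182, 1171 and 307. Over all 15 on the array, detected or not, the median log2 ratio was -0.41. Of 15 lysosomal genes (17 on the array), 2 were lower, against 4.26% of all genes, and none was higher. The 2 were Ctsh, cathepsin H (-2.19), and Lgmn, legumain (-0.93), both also active in antigen-presenting cells. Markers of other cell types were few on these arrays. Of 11 B cell genes on the array 2 passed detection and neither differed by 1.5-fold, of 8 plasma cell genes 3 passed and Mzb1 was lower (-1.50), of 11 granulocyte genes 3 passed and Mmp9 was lower, and of 5 erythroid genes 1 passed. Of 9 NK cell genes on the array 4 passed, with Klre1 higher (0.62) and Fcer1g, which myeloid cells share, lower (-1.95).

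**Figure D4:**
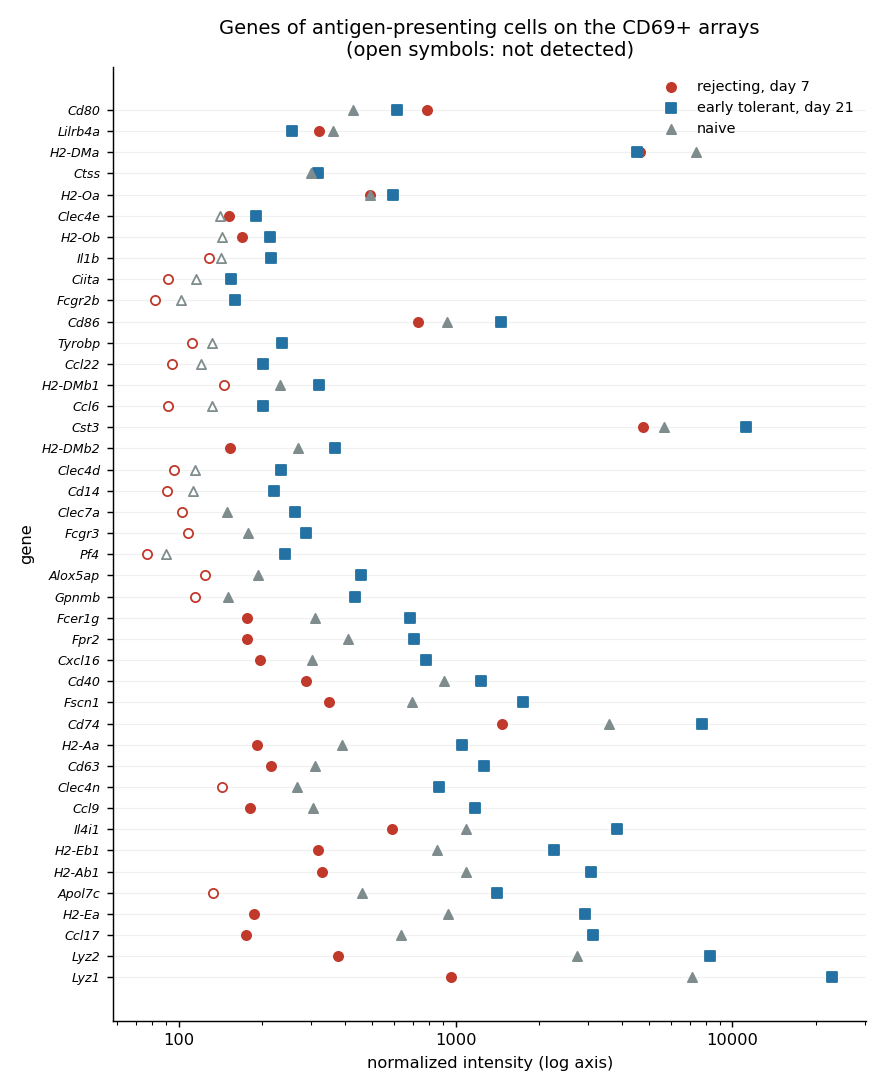
Normalized intensity (log axis) of the tested class II, dendritic and myeloid, and antigen-presenting cell chemokine genes on the rejecting (circles), early tolerant (squares) and naive (triangles) CD69+ arrays, sorted by the log2 ratio of rejecting over early tolerant. Open symbols mark genes not detected; Lyz1 at the bottom stands at 964 in rejecting, 22912 in early tolerant and 7169 in naive cells.

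The extremes of the comparison also held genes outside these lists. Crip2, a LIM domain protein gene, had 1949 in rejecting, 296 in early tolerant and 424 in naive CD69+ cells, 6.59-fold higher in rejecting than early tolerant cells. Tg, which encodes thyroglobulin, had 1165, 272 and 281. For both, early tolerant and naive cells were close. On the lower side, H2-M2, a class I-like gene known from dendritic cells, was at least 4.99-fold lower. The complement gene C1qb, the lipoprotein lipase gene Lpl and the ribonuclease gene Rnase2a, all known from myeloid cells, were at least 3.57-fold, 4.68-fold and 3.56-fold lower, since rejecting cells did not show them above detection.

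Some genes differed the same way in both fractions. Of the genes at least 1.5-fold higher in rejecting CD69+ cells, 37 were also higher in rejecting CD69- cells, 13.3% of the CD69+ and 30.1% of the CD69- genes, while 1.66% of all genes were higher in CD69- and 3.76% in CD69+ cells. Of the lower genes 42 were shared, again 13.3% of the CD69+ and 30.7% of the CD69- genes, while 1.85% of all genes were lower in CD69- and 4.26% in CD69+ cells. The fractions were sorted from the same cultures and hybridized to separate arrays. Among the shared genes were Ifng, Cdkn1a, Icos and Tfrc on the higher side and Lyz1, Lyz2, H2-Ab1 and Cd74 on the lower side. A further 19 genes were higher in rejecting CD69+ cells and lower in rejecting CD69- cells, and 2, Id1 and P2ry10, the reverse. Among the 19 were 6 of the glycolysis list, Aldoa, Egln3, Ndrg1, Pdk1, Pfkp and Vegfa. On another probe Pfkp and Vegfa had log2 ratios of 0.28 and 0.26 in CD69+ cells, under 1.5-fold. The genes furthest apart in CD69- cells outside the lists above included Plac8, with 12834 in rejecting, 4905 in early tolerant and 8505 in naive CD69- cells. Ifitm2, of the interferon-induced membrane family, had 689, 243 and 225, and the clock repressor gene Ciart had 192, 805 and 1110.2. Plac8 was also 2.38-fold higher in rejecting CD69+ cells, whereas Ciart had a log2 ratio of -0.20 there.

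**Figure D5:**
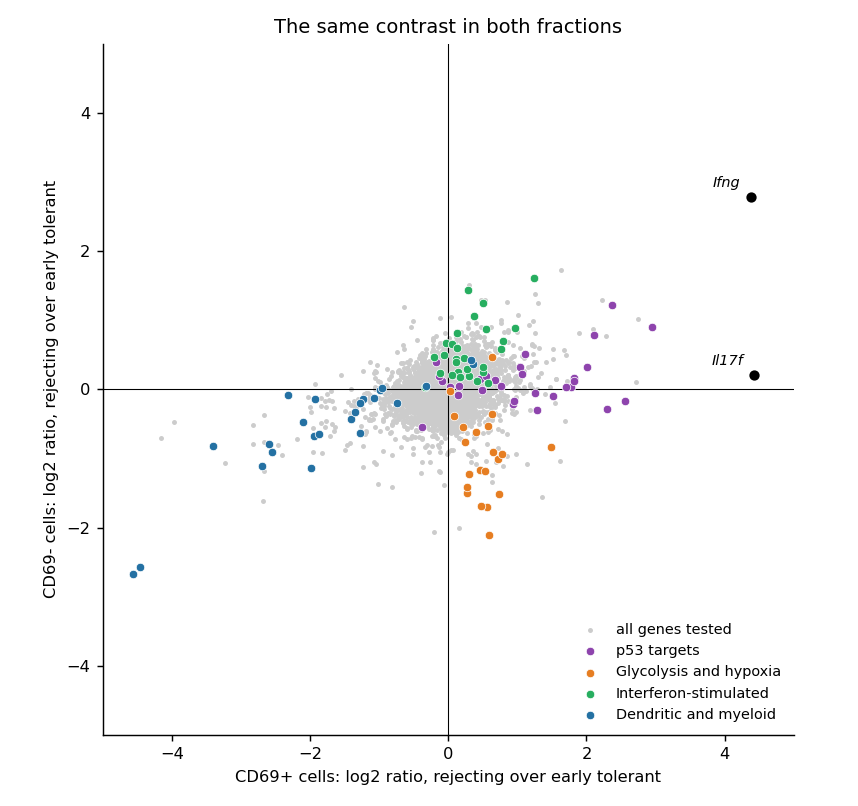
Log2 ratio, rejecting over early tolerant, of each of the 7403 genes in CD69+ cells (horizontal axis) and CD69- cells (vertical axis), 1 array a side. Glycolysis genes lie at the lower right, dendritic and myeloid genes at the left, and p53 targets spread to the right near 0 on the vertical axis; Ifng lies at 4.39 and 2.78, and Il17f at 4.43 and 0.20.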

How the data were processed

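T cells sorted by CD69 after culture with donor dendritic cells were measured on Illumina MouseRef-8 bead arrays, 1 array per group. The submitters' processing notes name BeadStudio 3.1.3. The deposited values are linear intensities without background subtraction, and their equal distribution on every array, checked on the values, is that of quantile normalization, which no label describes. A detection p-value was deposited beside each raw intensity by the authors. Probe IDs printed in the raw table matched those of the normalized table in 21.8% of rows, and the IDs of the normalized table were used: they put Cd3d at a mean of 24582 and the liver gene Alb at 80.2, against 778 and 3162 by the printed IDs. Of 25697 probes, 23978 had 1 symbol, 0 several and 1719 none. Fractions follow the sample titles, since the sort text gives the same gate for both.

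The brightest probe stood for a gene, and a gene was compared when its detection p-value was below 0.01 on 2 or more arrays. A gene counted as higher or lower when the ratio of signals was at least 1.5 and the brighter array detected it. Where the dim array did not detect it, a bound ("at least") was taken against the higher of that array's lowest detected signal and the gene's own. With 1 array a side there was no test and no p-value of differences. The members and the gene lists were chosen with earlier results of these data known. Genes named were the 15 highest and 15 lowest ratios in CD69+ cells and the 8 highest and 8 lowest in CD69- cells with a signal of 500 or more, up to 8 members of each list past 1.5-fold, and a fixed set. Other list members named, Hilpda among the promoters and the genes of the closing observations were picked after their values were seen. Alternatives were background correction with neqc of limma 3.58.1 (R 4.3.3), median scaling, the mean of a gene's probes, other detection filters and a signal minimum. The counting steps were tested on simulated data. Promoter windows of 250 bases came from RefSeq (GRCm38.p6) and were searched on both strands.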

Additional observations from a re-analysis of the deposited data

Results flagged for a closer look

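The contrast of rejecting with early tolerant cells had opposite signs in the CD69+ and CD69- fractions for the glycolysis and hypoxia list and for 8 named genes, each fraction being 1 array a side, and the difference between the fractions was not tested. The list's median log2 ratio was 0.54 in CD69+ and -0.94 in CD69- cells, 1.48 apart. Hilpda, a lipid droplet gene, had the widest gap of the 8 at 2.91. Vegfa, the angiogenic factor gene, followed at 2.69, with rejecting CD69- cells below detection, and the mTORC1 inhibitor gene Ddit4 at 2.65. Egln3, the oxygen-sensing hydroxylase, was 2.32 apart and Ndrg1, a stress gene induced by hypoxia, 2.24. Pdk1, which holds pyruvate from the mitochondrion, was 1.72 apart, the phosphofructokinase gene Pfkp also 1.72, and Aldoa 1.56. The gaps are those of the brightest probes. On another probe the CD69+ log2 ratio was 0.26 for Vegfa and 0.28 for Pfkp.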

How the results depend on the processing

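No paired analysis was possible because rejecting and early tolerant cells are 1 array each and share no replicate numbers, and with 1 array each no replicate could be left out. In CD69+ cells, background correction with neqc gave 501 genes higher and 497 lower, median scaling 577 higher, and a signal minimum of 500 gave 182 lower. In CD69- cells neqc gave 271 higher and 279 lower, median scaling 325 higher and 83 lower, and the signal minimum 79 higher and 84 lower. Of 128 named genes past 1.5-fold in CD69+ cells, all 128 kept their direction under neqc, the mean of probes and median scaling, and 128, 115 and 114 stayed past 1.5-fold. Among list medians, neqc gave -2.66 for the antigen-presenting cell chemokines, -1.90 for class II and -2.52 for dendritic and myeloid genes, and dropping the filter gave -0.41 for the chemokines. The 5 list medians past 1.5-fold kept their sign in all 4 alternatives, among them alternatives for the CD69- medians that were chosen after seeing the data. The causes of these shifts were not tested. Signals of dim genes lie close to background, so their folds are the least certain.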

Other observations

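Most histone genes of the H2A family had lower values in rejecting than early tolerant CD69+ cells. Of 13 H2A genes compared, 9 were at least 1.5-fold lower, against 4.26% of all genes, 4 lay within 1.5-fold and none was higher, with a median log2 ratio of -0.85. Of 9 H2B, 11 H3 and 10 H4 genes none passed 1.5-fold, with medians of 0.02, 0.05 and 0.17. H2ac15 had 9898 on the rejecting, 22763 on the early tolerant and 16957 on the naive array, and H2ac24 had 32258, 55912 and 50511. H2az1, a variant made outside S phase too, was near level with 17309, 18794 and 18794. In CD69- cells the H2A median was -0.15. Histone genes have near-identical copies whose probes may share signal, and the families were set apart after their values were seen.

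Among cell cycle regulators, Ccnd2, cyclin D2, had 7772 in rejecting, 18367 in early tolerant and 13296 in naive CD69+ cells, whereas Ccnd3, cyclin D3, had 7817, 7182 and 7973. In CD69- cells Ccnd2 stood at 3829.9, 3179 and 4491. Mt1, the metal-binding metallothionein gene, had 6144, 2802 and 2813 in CD69+ cells and 1014, 2152 and 2151 in CD69- cells, in opposite order of rejecting and early tolerant cells. Ly6c1, a surface marker of memory and effector CD8 cells, had 9558, 3755 and 5562 in CD69+ cells. Of the NF-kB subunit genes, Nfkb2 and Relb, of the noncanonical branch, had log2 ratios of -0.85 and -0.71 in CD69+ cells. Nfkb2 had 698, 1258 and 1142 on the rejecting, early tolerant and naive arrays, and Relb 861, 1411 and 1327. That is the order of the summed dendritic and myeloid genes, and the part of those cells in these values was not tested. Rela and Rel, of the canonical branch, had -0.04 and -0.15. Of the inhibitor genes, Nfkbia had -0.64, Nfkbie -0.49 and Nfkbib -0.21.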
